A study of Mus musculus with 18 samples.

Results

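The Dlk1-Dio3 domain is an imprinted stretch of mouse chromosome 12, and its 6 best known genes, Dlk1, Meg3, Rtl1, Rian, Mirg and Dio3, are described here in the brain of mice given glyphosate by mouth. The genes were chosen by name, as the rows of the deposited gene count table that carry these symbols, and they are 6 of the 27179 rows of that table. All 6 passed the filter on low counts, which left 15863 genes for testing. RNA from a brain hemisphere of 18 wild-type C57BL/6J mice, a standard inbred strain, was sequenced without selection for poly(A) tails. Dosing by daily gavage began at 4 months of age and lasted 14 days. Of the 5 vehicle mice 2 were male. Of the 5 mice given 125 mg/kg a day (low dose) 3 were male, as were 3 of the 4 given 250 mg/kg (middle dose) and 2 of the 4 given 500 mg/kg (high dose). The vehicle was the neutralised sodium hydroxide solution in which glyphosate was dissolved, so the vehicle mice were gavaged as well.

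An imprinted gene is transcribed from the copy inherited from a single parent. In this domain Dlk1, Rtl1 and Dio3 are protein-coding genes read from the paternal chromosome, and Meg3, Rian and Mirg are long non-coding RNAs read from the maternal chromosome, where they form a chain of transcripts from which small nucleolar RNAs (snoRNAs) and a large cluster of microRNAs (miRNAs) are cut. Dlk1 encodes a membrane protein of the Notch ligand family that lacks the receptor-binding domain of the classical ligands, and in the adult brain it is known from hypothalamic neurons and from dopamine neurons of the midbrain. In bulk tissue, fewer cells of a type and less RNA per cell cannot be told apart.

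All positions are in GRCm38, and the gene limits are those of RefSeq. Dlk1 (Entrez gene 13386) lies on the forward strand of chromosome 12 from 109452485 to 109463336. Meg3 (17263) follows from 109540996 to 109571729, Rian (75745) from 109603945 to 109661716 and Mirg (100040724) from 109734981 to 109749458, also on the forward strand. Rtl1 (353326) runs on the reverse strand from 109564900 to 109604418, so its interval overlaps the end of Meg3 and the start of Rian. Dio3 (107585), on the forward strand from 110279230 to 110281097, closes the domain 828.6 kb after the start of Dlk1. The 250 bases before a start that RefSeq lists are shown 5′ to 3′ on the forward strand for Dlk1 and Meg3. They set a paternally read gene, with the largest SD of log2 CPM, beside a maternally read one, with the highest level. The start used for Dlk1 lies inside the gene limits given above. Capitals mark matches to any of 5 motifs on either strand.
Dlk1, chr12:109452573-109452822: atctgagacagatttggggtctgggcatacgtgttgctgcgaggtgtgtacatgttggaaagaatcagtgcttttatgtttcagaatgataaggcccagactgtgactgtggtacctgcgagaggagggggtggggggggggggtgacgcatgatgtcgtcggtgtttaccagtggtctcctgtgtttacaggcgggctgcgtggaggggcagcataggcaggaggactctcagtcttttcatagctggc
Meg3, chr12:109540746-109540995: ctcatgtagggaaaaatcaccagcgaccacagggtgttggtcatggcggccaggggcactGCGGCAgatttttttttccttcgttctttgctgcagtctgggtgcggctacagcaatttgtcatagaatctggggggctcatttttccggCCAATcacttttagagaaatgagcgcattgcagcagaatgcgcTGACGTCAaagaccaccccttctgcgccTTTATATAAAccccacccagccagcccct

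The motifs searched were the TATA box as TATAAA, the CCAAT box as CCAAT, the cyclic AMP response element as TGACGTCA, the core of the ZFP57 site as TGCCGC, and the palindromic glucocorticoid response element. The Meg3 sequence held 2 overlapping matches to TATAAA, 1 on each strand, and 1 match each to CCAAT, TGACGTCA and TGCCGC, and the Dlk1 sequence held none of the 5. A further start is listed for Meg3, and its window, chr12:109545148-109545397, also held none of the 5. Among the 250-base windows of 32851 mouse promoters, 12.4% held TATAAA, 33.8% CCAAT, 1.55% TGACGTCA, 8.68% TGCCGC and 0.00913% the glucocorticoid element. G and C made up 54.8% of the Dlk1 window and 52.4% of the Meg3 window shown above, against a median of 52.4% over all promoters. These matches describe letters in the windows and are no evidence of binding.

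Total counts per library ran from 3948096 to 11732885, with a median of 7789800. Mice G4 and G9 stood apart, with median correlations of 0.933 and 0.932 to all other libraries, while those of the remaining 16 mice ran from 0.951 to 0.968. Mouse G4 also had the highest sum of 11 pituitary markers, 33.0 CPM, though 5 of the 11 had no counts there. CPM are counts scaled to a common library size, so that libraries of different depth can be compared. Prl, the prolactin gene, was at 18.6 CPM in G4, against at most 1.51 CPM in the others. The summed cortical glutamatergic markers ran from 847 to 4505 CPM with vehicle and from 708 to 2434 CPM at the high dose.

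In vehicle mice, the levels per kilobase of annotated exon were 76.3 CPM for Meg3, 23.7 for Rian, 5.92 for Rtl1, 3.16 for Dlk1, 1.78 for Mirg and 0.896 for Dio3. The exon lengths joined all Gencode transcripts of a gene, while the counts were made per Entrez gene. The lengths may therefore differ from those counted, and the order of the genes is approximate. Meg3 alone took 0.146% of all counts, and Dio3 0.000176%. The 6 genes also differed in how far the mice spread. Over the 18 libraries the SD of log2 CPM was 1.43 for Dlk1 and 1.32 for Dio3, which was larger than in 99% and 98.7% of the 13580 tested genes with a mean of at least 20 counts. It was 0.60 for Meg3, 0.51 for Rtl1, 0.39 for Mirg and 0.19 for Rian, against a median of 0.29 over those genes, so Rian was the steadiest of the 6 and varied less than most genes. Dio3 had a mean of 13.6 counts, below that minimum, and its spread includes much counting error.

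**Figure D1:**
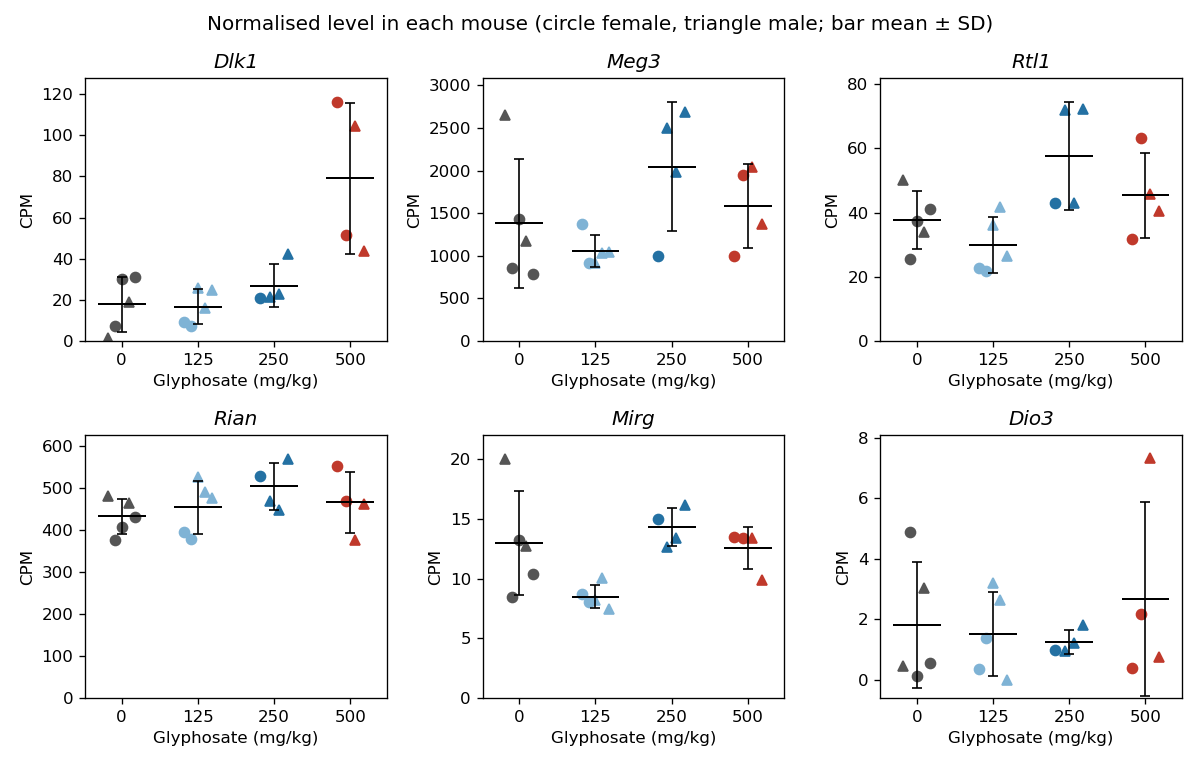
Level in CPM after TMM normalisation (y axis) of each of the 6 genes against the glyphosate dose in mg/kg (x axis) in the 18 mice, with circles for females, triangles for males, and bars for the group mean ± SD. The 4 mice at the high dose lay above every vehicle mouse for Dlk1, and for the other genes each dose group overlapped the vehicle group.

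Dlk1 had the largest dose slope and the smallest p of the 6 genes, and by the main test, edgeR, it missed the threshold. Its levels were 1.38, 18.8, 31.3, 7.53 and 30.3 CPM in vehicle mice G1, G5, G9, G15 and G18. At 500 mg/kg they were 116.0, 51.5, 104.7 and 43.8 CPM in mice G4, G79, G87 and G90. The groups did not overlap, with the lowest treated mouse (G90) above the highest vehicle mouse (G9), which held for 1 of the 6 genes and for 2.32% of all tested genes. In between, the levels were 9.20, 7.33, 25.7, 16.1 and 25 CPM in mice G25, G29, G34, G40 and G45 at the low dose, and 20.9, 21.3, 22.7 and 42.5 CPM in mice G49, G64, G66 and G71 at the middle dose. All 5 mice at the low dose lay within the vehicle range, and at the middle dose mouse G71 alone exceeded it. The means were 17.9 ± 13.4 CPM (SD, n = 5) with vehicle, 16.7 ± 8.57 (n = 5) at the low dose, 26.9 ± 10.5 (n = 4) at the middle dose and 79 ± 36.6 (n = 4) at the high dose. The mean at the high dose was 4.42 times the vehicle mean.

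The dose regression gives a slope as log2 change per 500 mg/kg with sex as a covariate. For Dlk1 it was 2.29 (standard error 0.50, adjusted p = 0.0576 by edgeR), so Dlk1 was not called, with a p that ranked 49 of 15863. With edgeR, 0 of the 6 genes were called in this regression, against 0.29% of all tested genes, and Dlk1 was the 1 gene of 6 at an unadjusted p under 0.05, against 13.2% of all genes. DESeq2 and limma-voom both called it. Its adjusted p was 0.00908 with DESeq2, which called 1 of the 6 genes and 1.43% of all genes, and 0.0392 with limma-voom, which also called 1 of the 6 and 0.315% of all genes. The edgeR call also turned on single mice. Dlk1 passed without G29 (adjusted p = 0.0467), G45 (0.0480), G79 (0.0472), G9 (0.0329) or G18 (0.0406), each of which left the slope between 2.24 and 2.57. Without both G4 and G9 the slope was 2.20 (standard error 0.53, adjusted p = 0.207). Without G4, which carried the highest level, the slope was 1.96 (adjusted p = 0.348), and without G87 it was 2.03 (adjusted p = 0.216).

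Against vehicle, the log2 change of Dlk1 was -0.17 at the low dose (standard error 0.59), 0.53 at the middle dose (0.63) and 2.11 at the high dose (0.57, adjusted p = 0.179 by edgeR). The 3 comparisons share the vehicle mice. Without vehicle mouse G1, the lowest, the change was -0.63 at the low dose and 0.061 at the middle dose. At 500 mg/kg edgeR called 0 of the 6 genes and 0.0189% of all genes, with 1 of 6, Dlk1, at an unadjusted p under 0.05 against 11.6% of all genes. DESeq2 called 0 of the 6 there, against 1.08% of all genes (adjusted p of Dlk1 = 0.0699), and limma-voom 0 of the 6, against 0.0189%. Without the high dose mice the slope of Dlk1 was 1.02 with a standard error of 1.29, and without the vehicle mice it was 3.27 (adjusted p = 0.0433).

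Marker lists of several cell types were read beside Dlk1. Of 15 midbrain dopamine markers, 12 were tested and 10 had a positive slope, against 8127 of all 15863 tested genes. The dose regression called 3 (Slc6a3, Ddc and Chrna6), against 0.29% of all genes. The summed level of the 15 markers ran from 91.3 to 290.9 CPM in vehicle mice and 80.7 to 180.4 at the low dose. It ran from 133.6 to 266.5 at the middle dose and 241.9 to 536.1 at the high dose. Slc6a3, the dopamine transporter, had no counts in vehicle mice G1 and G15 or in mice G49 and G66 at the middle dose. It ran from 13.7 to 43.3 CPM at the high dose. Foxa2, another dopamine neuron marker, had no counts in 11 of the 18 libraries, among them all 5 vehicle mice and 1 high dose mouse, and Th, the enzyme that starts dopamine synthesis, had counts in all 18. Nr4a2 (slope -0.79, standard error 0.44, adjusted p = 0.453) and En2 (-0.58, 0.67, adjusted p = 0.760) were the 2 markers of the list with a negative slope. Of 19 hypothalamus markers, 13 were tested, all 13 with a positive slope, against 8127 of 15863 genes. The dose regression called 1 of them (Irs4), again against 0.29% of all genes. The filter on low counts asks for a sufficient level in some libraries alone. Markers near 0 with vehicle, such as Slc6a3 and Oxt (means of 0.29 and 0.05 CPM), entered through the libraries where they were high. The counts of positive slopes in both lists therefore depend in part on the filter. The summed level of the 19 markers ran from 9.77 to 24.1 CPM with vehicle and 12.3 to 78.5 at the low dose. It ran from 17.2 to 131.3 at the middle dose and 25.6 to 168.0 at the high dose. High dose mouse G90, at 25.6 CPM, lay close to the highest vehicle mouse, and G34 at the low dose and G71 at the middle dose held the highest sums of their groups. Oxt, the oxytocin precursor, had no counts in 9 of the 18 libraries, and Avp, the vasopressin precursor, in 2.

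Over the 18 libraries, the log2 level of Dlk1 had a Pearson correlation of 0.866 with the mean log2 level of the midbrain dopamine markers (Spearman's rho 0.839, adjusted permutation p = 0.0009 and 0.0027 over 90 pairs of a gene and a marker list). The correlation was 0.792 without the 2 mice farthest from the median marker level and 0.798 within dose groups. With the hypothalamus markers it was 0.689 (rho 0.791, adjusted permutation p = 0.0527 and 0.00585), 0.632 without the 2 farthest mice and 0.450 within groups. Of the 90 pairs, Dlk1 with the dopamine markers was the 1 that passed for Pearson's r. With the cortical glutamatergic markers Dlk1 had an r of -0.631 (rho -0.767, adjusted permutation p = 0.138 and 0.00960), -0.618 without the 2 farthest mice and -0.526 within groups. Lists of cells in which Dlk1 is not chiefly known also had positive correlations with it that missed the threshold, with an r of 0.643 for astrocyte markers (adjusted permutation p = 0.138, and 0.190 as the r without the 2 farthest mice), 0.616 for serotonergic markers (adjusted permutation p = 0.198, and 0.564) and 0.504 for oligodendrocyte markers (adjusted permutation p = 0.303, and 0.377). All 10 oligodendrocyte markers had a positive slope, 9 of them at an unadjusted p under 0.05, against 13.2% of all genes. After adjustment 0 of the 10 were called, against 0.29% of all genes. The summed level of the 10 markers ran from 4049 to 7211 CPM with vehicle. At the high dose it was 16469 CPM in G4, 5865 in G79, 10219 in G87 and 8421 in G90, so G79 lay within the vehicle range. The 5 tested serotonergic markers had a median slope of 2.36, and 0 of them were called, against 0.29% of all genes. That slope leaned on mouse G4, where the serotonergic sum was 406.9 CPM. The sum was 45.8, 61.4 and 79.4 CPM in G79, G87 and G90, and it ran from 42.6 to 72.5 CPM with vehicle. With the dopamine marker level as a further covariate, an alternative added after the data were seen, the Dlk1 slope was 0.44 (standard error 0.52, adjusted p = 0.832 by edgeR). With the hypothalamus marker level it was 1.40 (standard error 0.58, adjusted p = 0.823). Every high dose mouse had a higher mean log2 dopamine marker level (lowest 3.18, G79) than any other mouse (highest 2.93, G18). Dose and marker level are therefore largely confounded in the dopamine marker fit, and it cannot separate them. The marker levels and Dlk1 come from the same libraries.

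**Figure D2:**
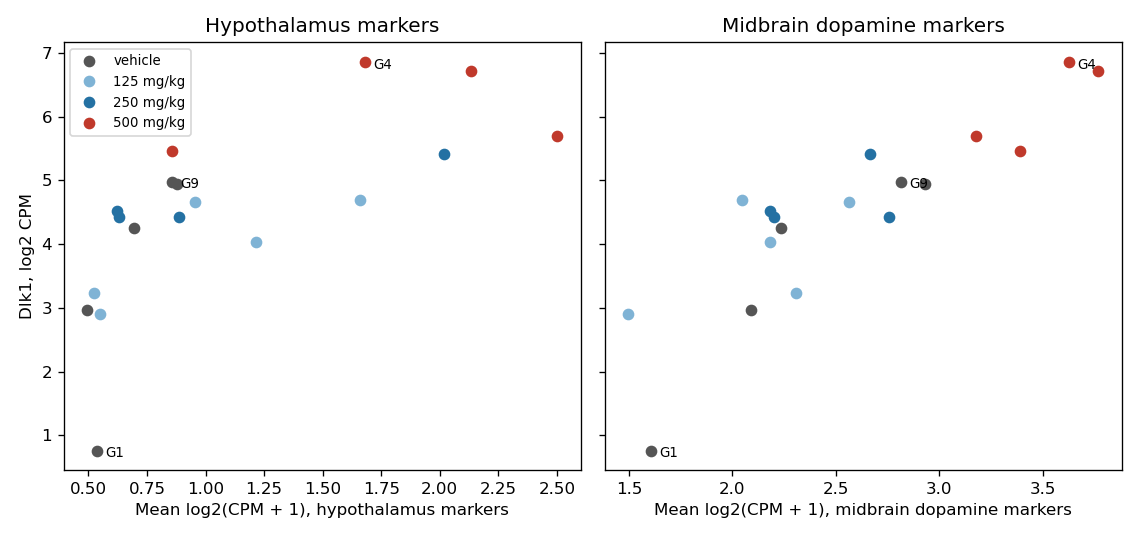
Dlk1 in log2 CPM (y axis) against the mean log2(CPM + 1) of the hypothalamus markers (left) and of the midbrain dopamine markers (right) in the 18 mice, coloured by dose group, with mice G1, G4 and G9 named. The 4 mice at the high dose had the highest dopamine marker levels and the highest Dlk1 levels, and vehicle mouse G1 was lowest in Dlk1.

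The 3 genes outside the domain whose log2 CPM followed that of Dlk1 most closely over the 18 libraries, among 13566 with a mean of at least 20 counts, were Gpx3, a secreted glutathione peroxidase (Pearson's r = 0.930), Arhgap36 (0.930) and Dgkk, a diacylglycerol kinase (0.923). Without mice G4 and G9 the top 3 were the same genes. Ranked by Spearman's rho, Arhgap36 was at place 1, Gpx3 at 11.5 and Dgkk at 15. Their own slopes were 1.09 for Gpx3, 2.23 for Arhgap36 and 2.01 for Dgkk, and none was called.

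Rtl1 encodes a retrotransposon-derived Gag-like protein needed in the placenta. Its levels were 50.1, 33.8, 41.2, 25.6 and 37.3 CPM in vehicle mice G1, G5, G9, G15 and G18. They were 22.9, 21.9, 36.3, 41.8 and 26.4 CPM in G25, G29, G34, G40 and G45 at the low dose, 43.1, 72.0, 43.0 and 72.2 CPM in G49, G64, G66 and G71 at the middle dose, and 31.8, 63.2, 45.7 and 40.5 CPM in G4, G79, G87 and G90 at the high dose. Mice G64 and G71 at the middle dose were the highest of all, and every group overlapped the vehicle group. The log2 change from vehicle was -0.42 at the low dose (standard error 0.22), 0.50 at the middle dose (0.24) and 0.25 at the high dose (0.23), and the dose slope was 0.46 (0.28, adjusted p = 0.50). The Rtl1 exon overlaps 7 miRNA rows, all 7 of which had no counts in any library, and 6 of the 7 lie on the strand opposite to Rtl1. The libraries were stranded, but the strand setting of the counting is not given in the sources used here, so reads of Rtl1 and of the antisense transcript cannot be told apart.

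Dio3 encodes the deiodinase that inactivates thyroid hormone. Its counts were 3, 29, 5, 37 and 1 in vehicle mice G1, G5, G9, G15 and G18, 3, 15, 20, 18 and 0 in G25, G29, G34, G40 and G45 at the low dose, 4, 8, 10 and 13 in G49, G64, G66 and G71 at the middle dose, and 3, 13, 56 and 6 in G4, G79, G87 and G90 at the high dose. The 0 in G45 allows at most 3 counts. The groups overlapped throughout, and mouse G87 held the highest value. The slope was 0.42 with a standard error of 0.85, and without G87 it was -0.79, so no direction can be given for Dio3 at this depth.

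Meg3 is the first of the maternally read RNAs and the most abundant gene of the domain. Its levels were 2656, 1170, 784, 859 and 1433 CPM in vehicle mice G1, G5, G9, G15 and G18 and 998, 1948, 2039 and 1371 CPM in G4, G79, G87 and G90 at the high dose. At 125 mg/kg they were 1378, 921, 912, 1037 and 1046 CPM in G25, G29, G34, G40 and G45, and at the middle dose 1001, 2504, 1987 and 2691 CPM in G49, G64, G66 and G71. Vehicle mouse G1 was second to mouse G71 alone, the other vehicle mice were all lower than 3 of the 4 mice at the middle dose, and the groups overlapped at each dose. The log2 change of Meg3 was -0.39 at the low dose (standard error 0.29), 0.41 at the middle dose (0.31) and 0.21 at the high dose (0.30), and the slope was 0.39 (0.32, adjusted p = 0.640). Without vehicle mouse G1 the change was -0.063 at the low dose and 0.81 at the middle dose (adjusted p = 0.646). The means were 1380.3 ± 758 CPM (SD, n = 5), 1059 ± 189 (n = 5), 2046 ± 757 (n = 4) and 1589 ± 492.8 (n = 4) from vehicle to 500 mg/kg.

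Rian, the host transcript of the C/D box snoRNAs of the domain, was the most even. It ran from 378 to 482 CPM with vehicle, 379.5 to 526.3 at the low dose, 449 to 569 at the middle dose and 378 to 554 at the high dose, with means of 433 ± 42.2 (SD, n = 5), 454 ± 63.3 (n = 5), 504 ± 54.9 (n = 4) and 466.04 ± 71.9 (n = 4). The slope was 0.12 (standard error 0.13, adjusted p = 0.730), and the groups overlapped at each dose.

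Mirg, the last of the maternally read RNAs and a host of miRNAs, had its lowest mean at the low dose. Its levels were 19.99, 12.7, 10.4, 8.45 and 13.2 CPM in vehicle mice G1, G5, G9, G15 and G18 and 8.74, 8.07, 8.18, 10.1 and 7.44 CPM in G25, G29, G34, G40 and G45 at the low dose. All 5 mice at the low dose lay below 4 of the 5 vehicle mice, and vehicle mouse G15 lay among them. The levels were 15.02, 12.6, 13.4 and 16.1 CPM at the middle dose and 13.5, 13.4, 13.4 and 9.92 CPM at the high dose, in the order of mice given above. The log2 change at the low dose was -0.62 (standard error 0.19, adjusted p = 0.326 by edgeR), with an unadjusted p of 0.00433, and it was -0.39 without vehicle mouse G1, the highest (adjusted p = 0.506). At 500 mg/kg the change was -0.04 (standard error 0.20).

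At 125 mg/kg edgeR called 0 of the 6 genes and 0% of all genes, with 1 of 6, Mirg, at an unadjusted p under 0.05 against 11.2% of all genes. DESeq2 called 0 of the 6 against 0.252% of all genes there and limma-voom 0 of the 6 against 0.0063%. At 250 mg/kg edgeR, DESeq2 and limma-voom called 0 of the 6 and 0% of all genes, with 0 of 6 at an unadjusted p under 0.05 by edgeR against 3.76% of all genes. For any difference among the 4 groups edgeR called 0 of the 6 and 0.0441% of all genes, and 3 of 6, Dlk1, Rtl1 and Mirg, had an unadjusted p under 0.05 against 15% of all genes. For curvature, tested as what the square and the cube of the dose add to a linear dose term, it called 0 of the 6 and 0.0063% of all genes. There, Mirg (adjusted p = 0.268) and Rtl1 (adjusted p = 0.297) made 2 of 6 at an unadjusted p under 0.05, against 11.7% of all genes. Their means were 8.50 and 29.8 CPM at the low dose and 14.3 and 57.5 CPM at the middle dose.

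Between the sexes, edgeR called 0 of the 6 genes and 0.0441% of all genes, and Meg3 was the 1 of 6 at an unadjusted p under 0.05 against 10.1% of all genes, with males 0.57 higher than females on the log2 scale (standard error 0.24, adjusted p = 0.459). For a difference in slope between males and females 0 of the 6 genes and 0% of all genes were called, and Rian was the 1 of 6 at an unadjusted p under 0.05 against 1.65% of all genes. Its slope was -0.20 in males and 0.37 in females, with a difference of -0.58 (standard error 0.23, adjusted p = 0.99993). For Dlk1 the slope was 2.61 in males alone and 2.02 in females alone, and the difference was 0.59 with a standard error of 1.07.

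**Figure D3:**
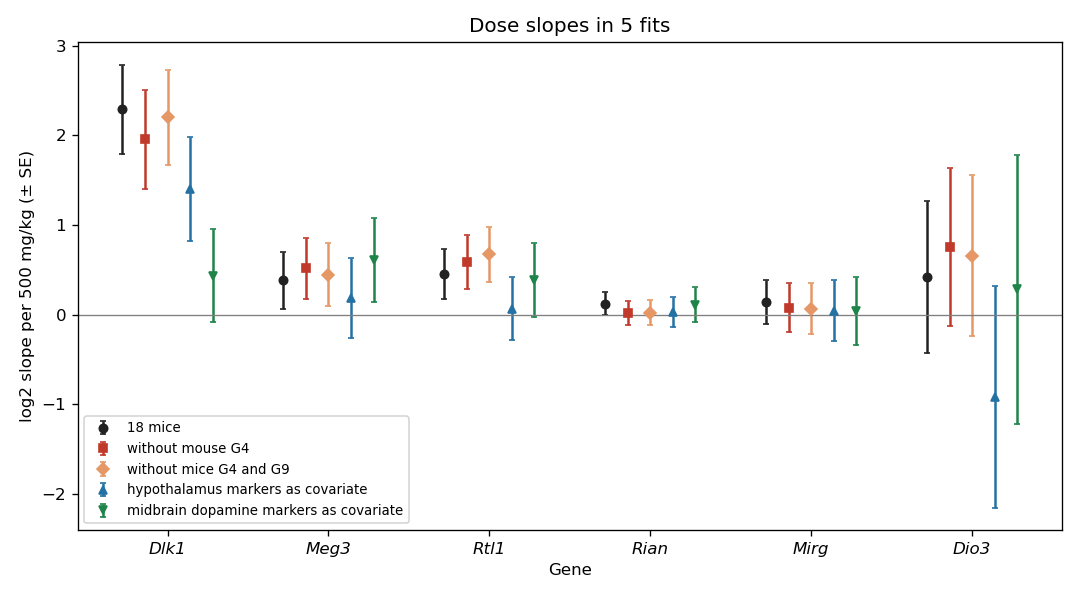
Dose slope as log2 change per 500 mg/kg ± standard error (y axis) of the 6 genes (x axis) in 5 edgeR fits, with all 18 mice, without mouse G4, without mice G4 and G9, and with the hypothalamus or the midbrain dopamine marker level as a further covariate. The Dlk1 slope was 2.29, 1.96, 2.20, 1.40 and 0.44 in these fits, and no slope of the 6 genes passed the threshold in any of these fits.

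Ratios between genes of the domain need no normalisation between libraries. The log2 ratio of counts of Dlk1 to Rian was -8.37, -4.63, -3.78, -5.64 and -3.75 in vehicle mice G1, G5, G9, G15 and G18 and -2.25, -3.19, -1.85 and -3.40 in G4, G79, G87 and G90 at the high dose, so the groups did not overlap. The mean difference was 2.56 (two-sided exact permutation p = 0.0159, the smallest that 5 against 4 mice can give, and 0.0635 adjusted over 4 ratios). Dlk1 to Meg3 differed by 2.36 (exact p = 0.0635, adjusted p = 0.127), with mouse G79 at -5.24 below vehicle mouse G9 at -4.64. Without vehicle mouse G1, which had 9 counts of Dlk1, the differences were 1.77 for Dlk1 to Rian and 1.35 for Dlk1 to Meg3. Among the maternally read RNAs the ratios differed by -0.20 for Rian to Meg3 (exact p = 0.698) and -0.29 for Mirg to Meg3 (exact p = 0.270), and 0 of the 4 ratios passed an adjusted p of 0.05.

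**Figure D4:**
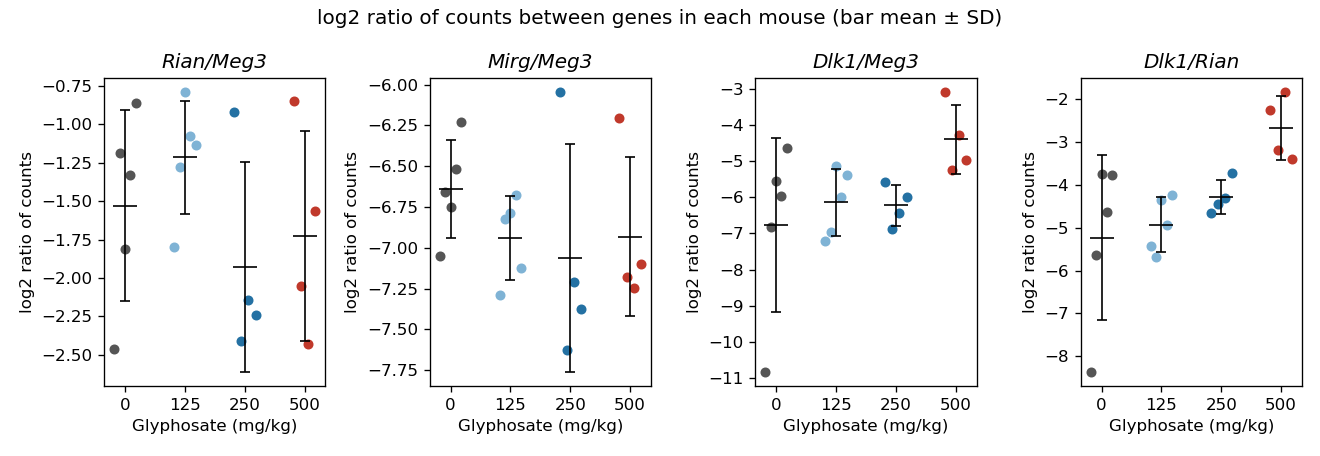
log2 ratio of counts (y axis) of Rian to Meg3, Mirg to Meg3, Dlk1 to Meg3 and Dlk1 to Rian against the glyphosate dose in mg/kg (x axis) in each mouse, with bars for mean ± SD. At 500 mg/kg the Dlk1 to Rian ratios, from -3.40 to -1.85, lay above all vehicle ratios, and the ratios among the maternally read RNAs overlapped between groups.

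Across the 18 mice, 3 of 15 pairs of the 6 genes correlated at an adjusted permutation p under 0.05. Meg3 and Rtl1 had a Pearson's r of 0.718 (Spearman's rho 0.676, adjusted p = 0.00915 and 0.0224), 0.642 without the 2 mice farthest from the median of Meg3 and 0.555 within dose groups. Rtl1 and Mirg had an r of 0.700 (rho 0.713, adjusted p = 0.00915 and 0.0180), 0.615 without the 2 farthest mice and 0.470 within groups. Meg3 and Mirg had an r of 0.676 (rho 0.567, adjusted p = 0.0113 and 0.0800), 0.511 without the 2 farthest mice and 0.566 within groups. Dlk1 correlated with none of the other genes at that threshold (r from -0.02 with Meg3 to 0.26 with Rtl1), and neither did Rian (r from -0.13 with Dio3 to 0.47 with Rtl1). All pairs share the same libraries and normalisation. The pairs with Rtl1 carry a further limit, as its reads cannot be told apart from those of the antisense transcript.

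The genes outside the domain nearest in pattern to the other members differed between them. For Meg3 the top 3 held Nktr (r = 0.936), Snhg11, a long non-coding RNA of neurons (0.926), and a row with no symbol in the table used here. For Rtl1 they held A330023F24Rik (0.890), Fam214a (0.890) and another such row. For Rian they were Dzip3 (0.871), Mrpl3 (0.773) and Ccdc50 (0.743), for Mirg Ermard (0.882), Pfkfb2 (0.854) and a row with no symbol, and for Dio3 Moxd1 (0.760), Acvr2a (0.723) and Tmed8 (0.720). These top 3 changed when ranked by Spearman's rho or without mice G4 and G9. Of each 3, 1 or 2 stayed for Meg3, Rian and Mirg, 1 for Rtl1, and 0 or 1 for Dio3.

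Between the start of Dlk1 and the end of Dio3 the table held 68 further rows, 58 of miRNAs, 7 of snoRNAs and 3 of other non-coding RNAs. Of these, 11 had no counts in any library, and all 11 overlap an exon of 1 of the 6 genes. A further 13 rows that overlap such an exon had counts, AF357359 among them. All 44 rows that overlap no such exon had counts too. The reads came from total RNA libraries and were longer than a mature miRNA, so a miRNA row counts pieces of the long host transcript at that place and not the mature miRNA. The 10 rows with the highest mean counts were the snoRNA AF357359 (450.9 counts), AF357426 (41.1), Mir1188 (34.6), DQ267100 (33.8), Mir134 (28.1), Mir453 (27.2), DQ267102 (25.6), Mir377 (24.4), Mir382 (21.9) and Mir496a (16.4). Rows AF357359, Mir134, Mir382, Mir493 and Mir539 were the 5 further rows at an unadjusted p under 0.05 in the dose regression, of 34 tested, a share near the 13.2% of all genes and so no result about these rows. Rows Mir453 and Mir496a are the pair of well-covered rows whose mature products share a seed. Mature sequences of these miRNAs (RefSeq, GRCm38.p6) are given 5′ to 3′ with bases 2 to 8, the seed that pairs with targets, in capitals.
miR-134-5p, chr12:109734145-109734166: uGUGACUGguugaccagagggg
miR-382-5p, chr12:109733781-109733802: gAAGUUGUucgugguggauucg
miR-493-3p, chr12:109580283-109580305: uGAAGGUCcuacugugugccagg
miR-539-5p, chr12:109728136-109728157: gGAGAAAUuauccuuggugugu
miR-453, chr12:109735669-109735692: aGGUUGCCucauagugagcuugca
miR-496a-5p, chr12:109739132-109739152: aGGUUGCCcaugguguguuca

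The 58 miRNA rows give 108 mature sequences with 99 different seeds, and 9 seeds are shared by a pair of sequences, as GGUUGCC is by miR-453 and miR-496a-5p. Of the 68 further rows, 34 passed the filter on low counts, 27 of miRNAs and 7 of snoRNAs. In the dose regression edgeR called 0 of these 34, against 0.29% of all genes. The slope was positive for 31 of the 34 rows, with a median of 0.43. Over all tested genes the median was 0.01, and 8127 of 15863 were positive. The values were 0.39 for AF357359 (standard error 0.15, adjusted p = 0.264), 0.68 for Mir134 (0.29), 0.96 for Mir382 (0.40), 1.63 for Mir493 (0.77) and 0.94 for Mir539 (0.43). Neighbouring rows of a host transcript share its reads' source and are not independent.

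Against vehicle, the 34 rows had a median log2 change of -0.44 at the low dose, with 27 of 34 lower, 0.39 at the middle dose, with all 34 higher, and 0.30 at the high dose, with 24 of 34 higher. Over all tested genes the medians were 0.00 at each dose. The 7 snoRNA rows, which lie in the introns or exons of Rian, had a median of 0.01 at the low dose, 0.37 at the middle dose and 0.24 at the high dose, and the 27 miRNA rows -0.48, 0.45 and 0.31. Summed over the 25 rows between Rian and Mirg that overlap no exon of the 6 genes, the level was 17.8 ± 10.7 CPM (SD, n = 5) with vehicle, 12.9 ± 4.40 (n = 5) at the low dose, 29.7 ± 6.45 (n = 4) at the middle dose and 22.1 ± 8.95 (n = 4) at the high dose. Vehicle mouse G1, at 35.1 CPM, matched the highest mice at the middle dose, and the groups overlapped at each dose, as they did for Meg3.

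**Figure D5:**
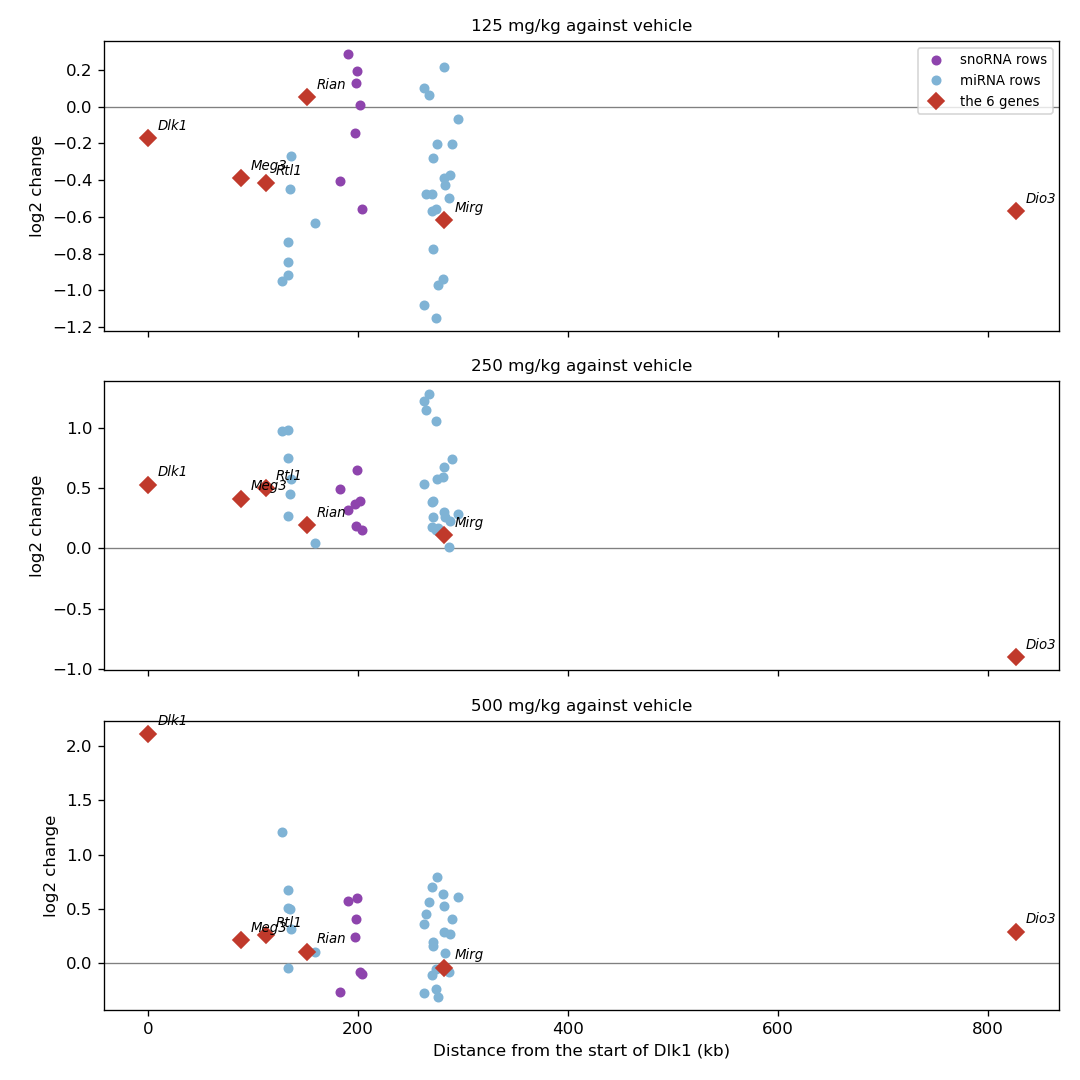
log2 change against vehicle (y axis) at 125, 250 and 500 mg/kg (top to bottom, each with its own scale) of the 6 genes (diamonds), the 27 tested miRNA rows and the 7 tested snoRNA rows (circles) against the distance from the start of Dlk1 in kb (x axis). At 250 mg/kg all 34 further rows lay above 0, and at the high dose Dlk1 stood at 2.11 above all of them.

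Genes on both sides of the domain were tested for comparison. Of the 10 tested genes nearest before Dlk1 and the 10 nearest after Dio3, edgeR called 0 in the dose regression, against 0.29% of all genes, and 1 of the 20, Cinp, had an unadjusted p under 0.05, against 13.2% of all genes. The median slope was 0.14 before Dlk1 and 0.12 after Dio3. The smallest p before Dlk1 belonged to Yy1, a zinc finger transcription factor (slope -0.22, standard error 0.11, adjusted p = 0.417), followed by Eml1 (0.24, 0.17, adjusted p = 0.564). After Dio3 they belonged to Cinp (slope -0.47, standard error 0.22, adjusted p = 0.360) and Dync1h1, the heavy chain of cytoplasmic dynein (0.28, 0.15, adjusted p = 0.430).

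Genes that act in the same pathways as the members were read next in the dose regression, which called 0.29% of all tested genes. Of 25 Notch pathway genes, 0 were called, 1 slope was positive and 3 were negative at an unadjusted p under 0.05, a share near the 13.2% of all genes, and the median slope was -0.04. The smallest p belonged to Dll4, a Notch ligand (slope -1.55, standard error 0.44, adjusted p = 0.142), Notch3, a receptor (0.61, 0.21), and the targets Hes1 (-0.64, 0.23) and Hey1 (-0.35, 0.14). Of 19 thyroid hormone genes tested, 0 were called, with a median slope of -0.22 and slopes of 0.41 for Rxra (standard error 0.12, adjusted p = 0.142), -0.47 for Thra, the main brain thyroid hormone receptor (0.18), and -0.54 for Slc7a8 (0.22).

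Of 14 tested genes with a Gag-derived sequence like Rtl1, edgeR called 1 that rose and 0 that fell, against 0.29% of all genes. The median slope was 0.16. The called gene was Peg10, a paternally expressed gene (slope 1.56, standard error 0.31, adjusted p = 0.0368), from 61.6 CPM in vehicle mice to 189.9 CPM at the high dose, and the next were Rtl5 (0.53, 0.16), Rtl9 (0.96, 0.33) and Pnma3 (0.57, 0.23). Of 31 tested imprinted genes of other domains, edgeR called 4 that rose and 0 that fell, against 0.29% of all genes. The slope was positive for 28 of the 31, against 8127 of 15863 over all genes, and the median was 0.34. Those called were Zim1 (slope 1.93, standard error 0.30, adjusted p = 0.0127), Zdbf2 (0.91, 0.17, adjusted p = 0.0341), Peg10, which is in both lists, and Peg3 (0.82, 0.17, adjusted p = 0.0427). Over all tested genes, 46 were called with all mice and 2 without mouse G4.

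Of 20 tested genes that keep or read imprints, 0 were called, and the median slope was 0.00. Rad21, a cohesin subunit, had a slope of -0.20 (standard error 0.09, adjusted p = 0.375), Ctcf -0.18 (0.10), Eed 0.35 (0.29) and Ehmt2 -0.20 (0.17). Of 14 genes of miRNA processing, 0 were called, with a median of 0.14 and slopes of 0.30 for Tnrc6a (0.15), 0.27 for Dicer1 (0.14), 0.25 for Ago2 (0.14) and 0.23 for Ago3 (0.14). Of 7 genes of the C/D box snoRNA particle, 0 were called, with a median of -0.05 and slopes of -0.41 for Nop58 (0.20), -0.48 for Fbl, the methyltransferase (0.32), 0.12 for Nop56 (0.15) and -0.05 for Nolc1 (0.14).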

How the data were processed

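RNA of a brain hemisphere from 18 mice was made into stranded total RNA libraries depleted of ribosomal RNA. The authors used STAR 2.7.5b (genome GRCm38), MultiQC 1.12 and featureCounts, and deposited raw counts, 1 row per Entrez gene. The replicate is the mouse, and p-values measure the spread between mice.

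Symbols came from RefSeq, in which 25275 of 27179 identifiers were found. Genes were filtered with filterByExpr by dose group (minimum count 10), scaled by TMM and fitted by quasi-likelihood in edgeR 4.0.16 (R 4.3.3), with dose divided by 500 or dose group, and sex. Benjamini-Hochberg adjustment ran over all 15863 genes, with calls at 0.05. Levels are CPM on TMM-scaled library sizes, and correlations used log2 CPM with a prior count of 2 and 100000 permutations. Ratios used counts plus 0.5. The test was checked on simulated data. No 2 libraries of a group agreed within sampling noise (32 pairs, chi-square per degree of freedom of at least 9.02).

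The members, gene lists and marker lists were chosen with earlier results of these data known. Named genes are the 6 members, the 10 other rows of the domain with the highest counts, the 2 genes of smallest p on each side, up to 4 of each pathway list and the 3 genes most like each member. A gene of the thyroid hormone list that this rule names is not reported here. Mir493, Mir539 and the marker genes were named after their values were seen. Alternatives were DESeq2 1.42.0, limma-voom (limma 3.58.1), a surrogate variable from sva 3.50.0, and other filters, covariates and sets of mice.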

Additional observations from a re-analysis of the deposited data

Results flagged for a closer look

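Of 24 combinations of a gene and a dose group, 3 held a mouse whose level lay far from the others by the size of its gap relative to the range of the group, and chance alone marks about 1 in 20 groups. Dlk1 in mouse G71 at 250 mg/kg was 42.5 CPM, with the next mouse at 22.7 CPM. Meg3 in mouse G25 at 125 mg/kg was 1378 CPM, with the next at 1046 CPM. Mirg in mouse G90 at 500 mg/kg was 9.92 CPM, with the next at 13.4 CPM. No difference in slope between the sexes passed an adjusted p of 0.05.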

How the results depend on the processing

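Against 46 genes called, the number was 12 with 1 surrogate variable, 227 with DESeq2, 27 with dose as a rank, 29 with no filter, 2 without mice G4 and G9, 7 without the vehicle mice and 0 without the high dose mice. It was 0 in females alone, 0 in males alone, 2 with the hypothalamus marker level, 0 with the dopamine marker level, and 0 with the mouse tag number as a block. Tags 41, 42, 44 and 45 each occurred in a single dose group. The tag block therefore left dose contrasts within tags 43 and 46 alone, and tag and dose are largely confounded. Each mouse left out gave 2 (G4) to 127 (G79). Of the 6 genes, 1 (Dlk1) was called with DESeq2, 1 with limma-voom and 1 without the vehicle mice, and 0 or 1 with each mouse left out. For the contrasts against vehicle, calls among the 6 genes stayed at 0 in every alternative run. The 4 ratios gave 0 calls as well, but this says little of their stability. With all mice, 1 ratio alone at the smallest possible exact permutation p of 0.0159 has an adjusted p of 0.0635. Fewer mice raise that smallest p.

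Some small values changed sign. With the hypothalamus marker level the high dose change was -0.96 for Dio3, -0.022 for Meg3, -0.019 for Rian and -0.27 for Rtl1. Mirg at that dose was 0.12 with the dopamine marker level and Rian -0.0052 without G4 and G9. Dlk1 at the low dose was 0.18 with limma-voom, 0.55 with the dopamine marker level and 0.024 without G4 and G9. The slope of Dio3 was -0.52 in females, -0.92 with the hypothalamus marker level, -0.83 with the tag block and -1.51 without the high dose mice, and in males that of Mirg was -0.18 and that of Rian -0.20. With each mouse left out, the low dose change ran from -0.95 to 0.45 for Dio3 and -0.63 to 0.15 for Dlk1. The high dose change ran from -0.75 to 1.30 for Dio3, -0.039 to 0.53 for Meg3, -0.16 to 0.17 for Mirg, -0.013 to 0.21 for Rian and -0.064 to 0.37 for Rtl1. The Rian to Meg3 difference ran from -0.49 to 0.041 and the Dio3 slope from -0.79 to 1.21. The cause was not tested. The marker level fits were added after the data were seen. A minimum of 10 counts in every library removed Dlk1 and Dio3. Low counts limit the precision of Dio3.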
